A study of Arabidopsis thaliana with 6 samples.

Results

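The genes described here are 61 Arabidopsis genes, known to the array's annotation only by a locus code, whose signal was low in uninduced suspension cells and higher in cells induced to make the transcription factor ATHB8. A locus code names a gene by its chromosome and its place along it, and 14743 of the 16550 genes named singly on the array carry no other name there. Only rows that name exactly 1 gene were used, and each gene was represented by 1 of these, the one with the highest mean over all 6 arrays. The 61 genes were chosen by 3 limits on the log2 signal. Their uninduced mean lay below 5, their induced mean lay at least 1 above it, and their lowest induced value lay above their highest uninduced value. Left out by name were 2 genes that meet these limits. The rule also leaves out genes of the plastid and mitochondrial genomes, which took no further gene from the locus-named ones. Since the same arrays chose the genes, the sizes of the rises below are descriptions, and no test is attached to them.

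All 6 arrays measured total RNA of an Arabidopsis cell suspension, labelled Alex and kept in the dark on a shaker, that carries an estrogen-inducible fusion of ATHB8 and green fluorescent protein (GFP). The 3 induced arrays hold these cells after 24 h with 5 µM estrogen, and the 3 uninduced arrays hold the same transformed cells after 24 h without it. The series was made to identify genes that act downstream of ATHB8. Cells without the transgene, with or without estrogen, were not analysed here, so the response to ATHB8 and any response to estrogen itself cannot be told apart.

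ATHB8 belongs to the class III homeodomain leucine zipper (HD-ZIP III) transcription factors. In the plant these proteins act in the procambium, the strand of dividing cells from which xylem and phloem form, and in setting the upper side of leaves, and microRNAs of the miR165 and miR166 group keep their transcripts in check. ATHB8 itself is known for marking the cells of a young leaf that will become a vein. An inducible line adds the factor to cells that need not be vascular. The array reports hybridisation signal, and on such arrays a gene with no transcript still gives some signal. No background level or detection call was analysed here, so an uninduced signal below 5 is not shown to be transcript, and a fold from such a signal may understate the change in transcript. In these bulk samples a change in a few cells and a change in all cells cannot be told apart.

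The rises of the 61 genes ranged from 1.01 to 3.94 on the log2 scale, with a median of 1.51 (2.84-fold), while the median difference over all 38408 rows was -0.01. In 17 of the genes the log2 difference was at least 2, in 5 it was at least 3, and in 30 it was under 1.5. The uninduced means lay between 2.42 and 4.99 (median 4.07), which is between percentiles 6.55 and 40.7 of all rows. The induced means lay between 3.80 and 7.90 (median 5.75), between percentiles 24.9 and 72.6. Of the 61 genes 28 had an induced mean above 5.95, the highest median signal of any array, 14 were still below 5 after induction, and 5 reached 7 or more. The median of the genes' percentiles was 29.1 uninduced and 49.0 induced.

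**Figure D1:**
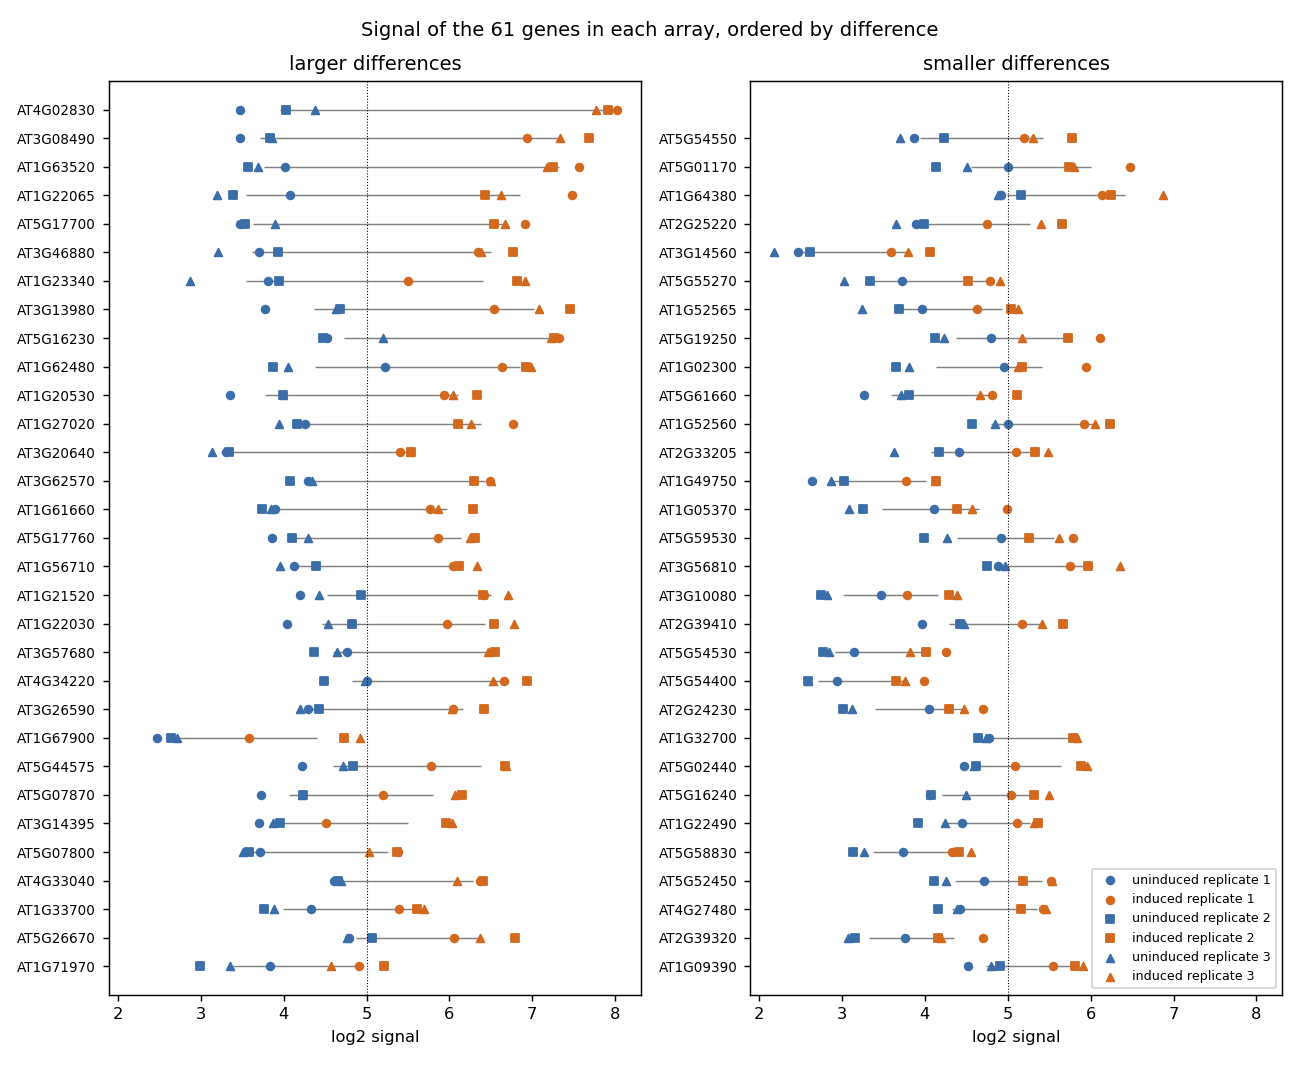
Log2 signal of each of the 61 genes in each of the 6 arrays, with uninduced arrays in blue, induced arrays in orange, a marker shape for each replicate number and a grey line between the group means. The dotted line marks the limit of 5 on the uninduced mean, and AT4G02830, at the top left, has the largest difference, 3.94.

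Of the 14741 locus-named genes open to choice, 6706 (45.5%) had an uninduced mean below 5, and the 61 chosen genes are 0.910% of these. Another 121 of the low genes had non-overlapping groups with the induced arrays higher by less than 1, and only 2 of them reached 0.9. Over all rows 0.841% met the limits of a rise of at least 1 with no overlap, and 5.82% had non-overlapping groups with the induced arrays higher at any size. Among the 6706 low genes the latter share was 2.71% (182 genes). These shares are the background for the count of 61, from which nothing is read because the limits fixed it. In the opposite direction, 5 genes had an induced mean below 5, an uninduced mean higher by at least 1 and no overlap. From an uninduced mean of 5 or more, 57 locus-named genes met the same limits, with a median difference of 1.46 and a largest difference of 2.76.

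**Figure D2:**
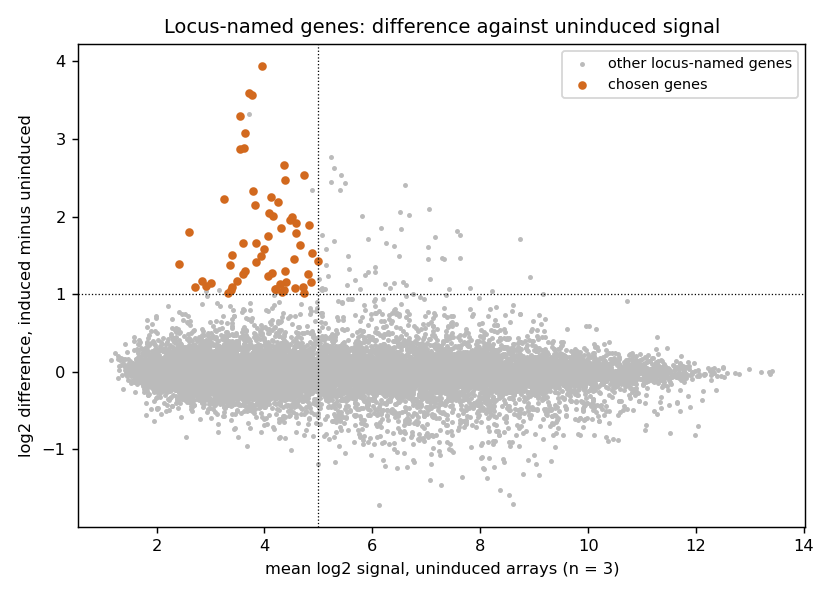
Log2 difference between induced and uninduced means against the uninduced mean, 1 point per locus-named gene, with the 61 chosen genes in orange. The dotted lines are the limits of 5 on the uninduced mean and 1 on the difference, and the chosen genes fill the upper left field up to a difference of 3.94.

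The replicate 1 arrays touch this choice directly. The induced and the uninduced array of replicate 1 held exactly the same value in 4522 of the 6706 low genes (67.4%), against 2080 of 8035 genes (25.9%) at 5 or more. A gene with equal values in these arrays cannot have non-overlapping groups, so the 61 genes come from the 2184 low genes with unequal values, of which they are 2.79%. Over all rows these arrays shared 12229 values (31.8%), and no other combination of arrays shared more than 23. When the limits were applied to replicates 2 and 3 alone, an alternative added after seeing the data, 85 genes met them. These held 60 of the 61 chosen genes and 6 genes with equal replicate 1 values. The rest of the 85 had unequal replicate 1 values and missed the limits once replicate 1 was included. In the opposite direction 16 genes met the mirrored limits. AT1G64380 was the chosen gene not among the 85, because its uninduced mean over replicates 2 and 3 was 5.02.

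The 6 genes set aside by their equal replicate 1 values were higher in replicates 2 and 3 by 1.01 to 1.34. AT1G63340 had uninduced values of 3.47, 3.77 and 2.13 in replicates 1, 2 and 3 and induced values of 3.47, 4.78 and 3.80. AT2G43580 gave 3.70, 4.05 and 4.30 in the uninduced arrays and 3.70, 5.07 and 5.66 in the induced ones. AT2G17972 and AT3G05858 had differences of 1.15 and 1.12 in replicates 2 and 3, and AT3G52900 and AT2G10450 of 1.08 and 1.01. The 6 genes were selected for equal replicate 1 values and for a rise in replicates 2 and 3. Both traits are thus set by the selection, and nothing is read from them.

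The median standard deviation (SD) of a member over 3 arrays was 0.27 uninduced and 0.23 induced. Over all 6706 low genes, members included, it was 0.25 and 0.26, and nothing is read from this, since the limit on overlap bears on the spread of the members. The SD was larger in the uninduced arrays for 36 genes and larger in the induced arrays for 25. Replicate 1 gave the lowest induced value in 33 of the 61 genes, replicate 2 in 15 and replicate 3 in 13. Replicate 1 also gave the highest uninduced value in 29, replicate 2 in 21 and replicate 3 in 11. Between same-numbered arrays the median difference was accordingly 1.27 in replicate 1, 1.67 in replicate 2 and 1.75 in replicate 3, and the smallest of the 3 differences fell in replicate 1 for 37 genes. Of the 57 genes raised from 5 or more, 33 had their smallest difference in replicate 1, with medians of 1.44, 1.47 and 1.47. All 61 genes were higher in each same-numbered comparison, as the limits require, and 39 were higher by at least 1 in all 3.

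**Figure D3:**
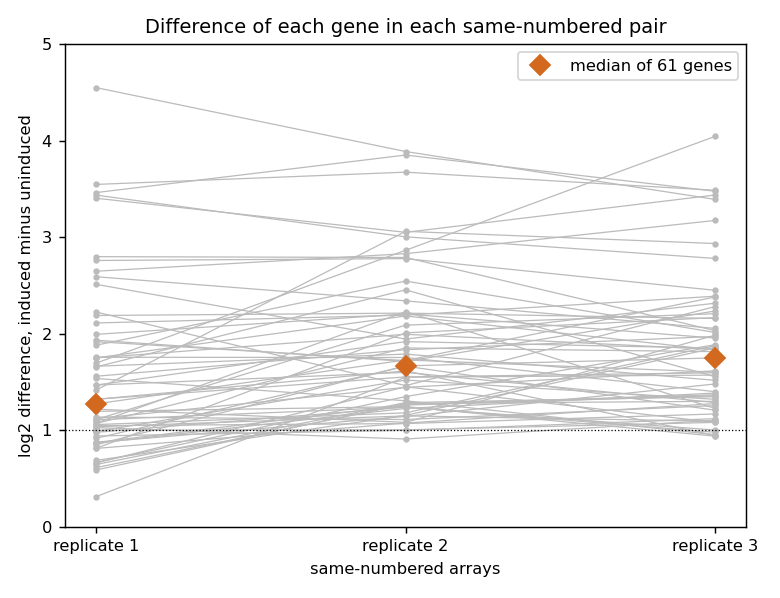
Log2 difference between the induced and uninduced array of the same replicate number, with a grey line for each of the 61 genes and a diamond for their median. The medians are 1.27, 1.67 and 1.75, the order of the replicates has no meaning, and the lowest point, 0.31 in replicate 1, is AT3G10080.

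The array annotation and the RefSeq gene table used here give no product names, so the families named below are background knowledge of these Arabidopsis loci. They were assigned after the values were seen and carry no test. A family is given here for 32 of the 61 genes, and the others were not shown to lack one. The ranges by family below cover only these 32. In the sentences that follow, 3 values for a group are its log2 signals in replicates 1, 2 and 3, and a difference ± its standard error (SE) comes from the linear model over all rows, with 3 arrays in each group.

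Of the 61 genes, 5 encode DNA-binding or putative transcription factors, with log2 differences from 1.06 to 2.23. AT3G20640, of the basic helix-loop-helix (bHLH) family, whose members bind the E-box as dimers, had 3.30, 3.34 and 3.14 in the uninduced arrays and 5.41, 5.53 and 5.52 in the induced ones. AT1G61660, also a bHLH protein, gave 3.89, 3.75 and 3.85 in the uninduced arrays and 5.77, 6.29 and 5.87 in the induced ones. Both genes had groups far apart, with differences of 2.23 ± 0.11 and 2.15 ± 0.16 (SE). Both groups of AT3G20640 were narrow, with SDs of 0.11 uninduced and 0.07 induced, while AT1G61660 had 0.08 and 0.28. AT1G22490, listed in RefSeq as bHLH94, gave 4.45, 3.91 and 4.24 in the uninduced arrays and 5.11, 5.36 and 5.32 in the induced ones, a difference of 1.06 ± 0.17. AT1G64380, of the AP2/ERF family named after the ethylene response factors, gave 4.92, 5.16 and 4.89 in the uninduced arrays and 6.14, 6.24 and 6.87 in the induced ones. It had the highest uninduced mean of the 61 genes, 4.99, and a difference of 1.43 ± 0.22. AT1G32700, of the plant-specific PLATZ family of zinc-dependent DNA-binding proteins, gave 4.77, 4.64 and 4.74 in the uninduced arrays and 5.81, 5.79 and 5.83 in the induced ones, and its difference of 1.09 ± 0.10 was small but the most evenly measured among these genes.

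Genes that RefSeq names as bHLH and the rule did not choose were read in limma. The rule had taken out AT1G22490 for its rise on the same arrays, so the counts and median of those left are partly set by the choice. These genes are not the whole family, since neither AT3G20640 nor AT1G61660 has such a name. RefSeq gives 31 genes a name with bHLH, of which 9 had a named row and 8 of these were not chosen. In limma over all rows 0 of the 8 passed at an adjusted p under 0.05, where 0.633% of all rows passed upward and 0.961% in either direction, and 1 had an unadjusted p under 0.05. This was bHLH115 (AT1G51070), which differed by 0.45 ± 0.10 (SE, n = 3 per group; limma adjusted p = 0.132). AT1G72210 differed by 0.30 ± 0.14 (limma adjusted p = 0.693), BHLH101 by 0.35 ± 0.17 (0.743) and BHLH92 by -0.18 ± 0.22 (1.0). The median of the 8 was 0.07, against -0.01 over all rows. Of the 8, AT1G72210, BHLH101, BHLH92, bHLH34 and ILR3 held the same value in both replicate 1 arrays. Replicate 1 thus adds no difference to theirs, and their group differences rest on replicates 2 and 3. bHLH115 passed with array weights (0.0453) and with a trended, robust variance prior (0.0201).

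Genes of signalling proteins had log2 differences from 1.09 to 1.89. AT4G34220 and AT2G24230 encode receptor-like kinases with leucine-rich repeats, which span the plasma membrane and pass on signals from outside the cell. AT4G34220 gave 5.01, 4.48 and 4.98 in the uninduced arrays and 6.66, 6.94 and 6.53 in the induced ones, a difference of 1.89 ± 0.19 (SE). AT2G24230 gave 4.05, 3.01 and 3.12 in the uninduced arrays and 4.70, 4.30 and 4.47 in the induced ones, with the replicate 1 arrays highest in both groups and a gap of 0.24 between the groups. AT2G25220, a protein kinase, gave 3.90, 3.99 and 3.65 in the uninduced arrays and 4.75, 5.65 and 5.40 in the induced ones, where the induced replicate 1 array lay lowest. AT1G67900, of the NPH3 family known from phototropism, had 2.47, 2.64 and 2.71 in the uninduced arrays and 3.58, 4.73 and 4.92 in the induced ones. Its uninduced mean of 2.61 was among the lowest of the 61 genes, and its induced replicate 1 value lay more than 1 below those of replicates 2 and 3.

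Transport proteins included 3 members of the multidrug and toxic compound extrusion (MATE) family, antiporters that move organic compounds out of the cytosol into the vacuole or out of the cell. AT5G17700 had the largest difference of them, with 3.48, 3.54 and 3.89 in the uninduced arrays and 6.91, 6.54 and 6.67 in the induced ones and a difference of 3.07 ± 0.16 (SE). AT3G26590 gave 4.30, 4.43 and 4.20 in the uninduced arrays and 6.05, 6.42 and 6.03 in the induced ones, a difference of 1.86 ± 0.15, and AT5G52450 gave 4.71, 4.11 and 4.26 in the uninduced arrays and 5.52, 5.18 and 5.53 in the induced ones, a difference of 1.05 ± 0.20. The induced levels of the MATE genes thus ranged from 5.41 to 6.71. AT2G33205, of the serine incorporator (serinc) family of membrane proteins, gave 4.41, 4.17 and 3.63 in the uninduced arrays and 5.10, 5.32 and 5.48 in the induced ones. AT1G05370, of the Sec14-like proteins, which carry lipids between membranes in yeast, gave 4.12, 3.25 and 3.09 in the uninduced arrays and 4.99, 4.39 and 4.57 in the induced ones. Its replicate 1 arrays were the highest of both groups, so that only 0.28 separated its groups.

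Genes of wall and carbohydrate enzymes were higher by 1.03 to 2.01 on the log2 scale. AT1G56710, of the pectin lyase-like superfamily, gave 4.12, 4.39 and 3.95 in the uninduced arrays and 6.04, 6.12 and 6.33 in the induced ones, a difference of 2.01 ± 0.16 (SE). AT5G26670, a pectin acetylesterase, which takes acetyl groups off pectin, gave 4.78, 5.07 and 4.77 in the uninduced arrays and 6.06, 6.79 and 6.37 in the induced ones, a difference of 1.53 ± 0.21. The induced arrays of AT1G56710 and AT5G26670 read between 6.04 and 6.80. AT1G33700, of a family of beta-glucosidases that act on glucosylceramide, a membrane lipid, gave 4.33, 3.76 and 3.88 in the uninduced arrays and 5.39, 5.61 and 5.70 in the induced ones. AT4G27480, of a glycosyltransferase family named for core-2/I-branching enzymes, gave 4.43, 4.16 and 4.38 in the uninduced arrays and 5.43, 5.16 and 5.47 in the induced ones. Their differences were 1.58 ± 0.18 and 1.03 ± 0.14.

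Among genes of lipid metabolism, adjacent acyl-carrier-protein desaturase genes were higher by different amounts. These plastid enzymes put a double bond into a fatty acid while it is bound to its carrier protein. AT5G16230 gave 4.52, 4.47 and 5.20 in the uninduced arrays and 7.32, 7.26 and 7.23 in the induced ones, a difference of 2.54 ± 0.21 (SE), and its 3 induced values lay within 0.09 of each other. AT5G16240, the next gene on the chromosome, gave 4.06, 4.08 and 4.50 in the uninduced arrays and 5.04, 5.32 and 5.50 in the induced ones, a difference of 1.07 ± 0.18. Sequence similarity between them was not analysed here, so signal shared between these related genes was not tested. AT1G09390, of the GDSL lipases and esterases, gave 4.52, 4.90 and 4.80 in the uninduced arrays and 5.54, 5.81 and 5.91 in the induced ones, and AT2G39410, of the alpha/beta hydrolases, gave 3.97, 4.42 and 4.47 in the uninduced arrays and 5.17, 5.67 and 5.41 in the induced ones. Both differed by little more than the limit, by 1.01 ± 0.16 and 1.13 ± 0.20.

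Genes of redox enzymes were higher by 1.16 to 1.66. AT4G33040, a glutaredoxin, of the small proteins that reduce disulfides with glutathione, had 4.61, 4.65 and 4.69 in the uninduced arrays and 6.37, 6.41 and 6.09 in the induced ones. Its uninduced values were the closest to each other of the 61 genes, with an SD of 0.04, and its difference was 1.64 ± 0.12 (SE). AT5G07800, a flavin-containing monooxygenase, gave 3.72, 3.58 and 3.51 in the uninduced arrays and 5.38, 5.37 and 5.03 in the induced ones, a difference of 1.66 ± 0.14. AT5G59530, of the oxygenases that use 2-oxoglutarate and iron, gave 4.92, 3.99 and 4.27 in the uninduced arrays and 5.79, 5.25 and 5.62 in the induced ones, a difference of 1.16 ± 0.27.

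Genes for proteases and a chaperone were higher by 1.05 to 1.92. AT3G57680, a protease of the plastid C-terminal processing kind, gave 4.77, 4.37 and 4.64 in the uninduced arrays and 6.52, 6.55 and 6.47 in the induced ones, a difference of 1.92 ± 0.13 (SE). AT1G02300, a cathepsin B-like cysteine protease, gave 4.95, 3.65 and 3.81 in the uninduced arrays and 5.94, 5.17 and 5.13 in the induced ones. Its uninduced replicate 1 value lay 0.18 below its lowest induced value, the smallest gap of any chosen gene. AT1G02305, the adjacent cathepsin B-like gene, which was not chosen, differed by 0.55 ± 0.15 (SE, n = 3 per group; limma adjusted p = 0.237). AT5G58830, a subtilisin-like serine protease, gave 3.73, 3.14 and 3.26 in the uninduced arrays and 4.32, 4.41 and 4.56 in the induced ones. Its neighbours AT5G58820 and AT5G58840, which are also subtilisin-like and were not chosen, differed by -0.04 ± 0.26 and -0.41 ± 0.23 (limma adjusted p = 1.0 and 0.809). AT5G58840 held the same value in both replicate 1 arrays. AT1G52560, a small heat shock protein, which keeps unfolded proteins from clumping, gave 5.00, 4.57 and 4.84 in the uninduced arrays and 5.91, 6.23 and 6.05 in the induced ones, a difference of 1.26 ± 0.16. In the remaining enzymes AT5G17760, an ATPase of the AAA family, gave 3.87, 4.10 and 4.30 in the uninduced arrays and 5.86, 6.30 and 6.25 in the induced ones, AT5G07870, an acyltransferase, gave 3.73, 4.23 and 4.22 in the uninduced arrays and 5.20, 6.15 and 6.07 in the induced ones, and AT5G54400, a methyltransferase, gave 2.95, 2.59 and 2.59 in the uninduced arrays and 3.99, 3.66 and 3.76 in the induced ones.

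The 29 genes with no family given here held the 4 largest differences. AT4G02830 had the largest of all, from 3.96 ± 0.45 to 7.90 ± 0.13 (SD, n = 3 per group), with 3.47, 4.03 and 4.37 in the uninduced arrays and 8.02, 7.92 and 7.76 in the induced ones. AT3G08490 gave 3.47, 3.83 and 3.86 in the uninduced arrays and 6.93, 7.68 and 7.33 in the induced ones, and AT1G63520 gave 4.02, 3.57 and 3.69 in the uninduced arrays and 7.56, 7.24 and 7.18 in the induced ones. In all of these the lowest induced value lay more than 3 above the highest uninduced value. AT1G22065 gave 4.08, 3.39 and 3.19 in the uninduced arrays and 7.48, 6.43 and 6.63 in the induced ones, with its replicate 1 arrays highest in both groups. AT3G46880 gave 3.70, 3.94 and 3.20 in the uninduced arrays and 6.35, 6.77 and 6.38 in the induced ones, and AT1G23340 gave 3.81, 3.95 and 2.87 in the uninduced arrays and 5.50, 6.81 and 6.91 in the induced ones. AT1G23340 differed unevenly, by 1.69, 2.86 and 4.04 in replicates 1, 2 and 3.

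The next of these genes by size were AT3G13980, with 3.78, 4.68 and 4.63 in the uninduced arrays and 6.54, 7.46 and 7.08 in the induced ones, and AT1G62480, with 5.23, 3.87 and 4.05 in the uninduced arrays and 6.64, 6.93 and 6.98 in the induced ones. The uninduced replicate 1 value of AT1G62480 lay more than 1 above the other uninduced values, and its uninduced SD of 0.74 was the largest of the 61 genes. AT1G20530 gave 3.35, 4.0 and 3.99 in the uninduced arrays and 5.94, 6.33 and 6.05 in the induced ones, AT1G27020 gave 4.25, 4.16 and 3.95 in the uninduced arrays and 6.76, 6.10 and 6.26 in the induced ones, and AT3G62570 gave 4.30, 4.08 and 4.35 in the uninduced arrays and 6.49, 6.29 and 6.50 in the induced ones. AT3G62570 was higher by nearly the same amount in every replicate, by 2.19, 2.21 and 2.16. AT3G14395 had the widest induced group, with 3.70, 3.95 and 3.87 in the uninduced arrays and 4.51, 5.96 and 6.04 in the induced ones, and its difference in replicate 1 was 0.81 against 2.01 and 2.17 in the others. AT3G14560 had the lowest uninduced mean, 2.42, with 2.47, 2.62 and 2.18 in the uninduced arrays and 3.59, 4.06 and 3.80 in the induced ones, and stayed low after induction.

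The other genes with no family given had differences from 1.02 to 1.99. AT1G21520, AT1G22030 and AT5G44575 had differences of 1.99, 1.96 and 1.79 and induced means from 6.38 to 6.51. AT1G71970, AT5G54550, AT5G01170, AT5G55270, AT1G52565, AT5G19250 and AT5G61660 had differences between 1.26 and 1.51. AT1G49750, AT3G56810, AT3G10080, AT5G54530, AT5G02440 and AT2G39320 had differences between 1.02 and 1.17. AT3G10080 showed the smallest difference in any same-numbered comparison, 0.31 in replicate 1, against 1.55 and 1.57 in replicates 2 and 3.

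At the limits themselves the choice turned on small amounts. Just inside the limit of 5 were AT1G64380, AT5G26670 and AT3G56810, with uninduced means of 4.99, 4.87 and 4.87. Just outside it were AT1G61930, with 5.18, 4.82 and 5.06 in the uninduced arrays and 6.36, 6.36 and 5.94 in the induced ones, AT2G28570, with 5.61, 4.86 and 4.70 in the uninduced arrays and 6.22, 6.20 and 5.92 in the induced ones, and AT5G39080, with 5.05, 5.39 and 4.75 in the uninduced arrays and 6.76, 6.76 and 6.96 in the induced ones. AT5G39080 was higher by 1.76, above the median of the chosen genes, from an uninduced mean of 5.06. At the limit of 1 on the difference AT1G09390, AT2G39320 and AT4G27480 stood inside with 1.01, 1.02 and 1.03. AT2G39320 gave 3.76, 3.16 and 3.07 in the uninduced arrays and 4.70, 4.16 and 4.19 in the induced ones, and AT3G56810 gave 4.89, 4.75 and 4.96 in the uninduced arrays and 5.75, 5.97 and 6.35 in the induced ones. AT4G06744, AT4G20320 and AT5G61260 stood outside with differences of 0.98, 0.91 and 0.87. AT4G06744 gave 3.45, 2.57 and 2.79 in the uninduced arrays and 3.94, 3.87 and 3.95 in the induced ones, AT4G20320 gave 5.23, 4.38 and 5.31 in the uninduced arrays and 5.93, 5.79 and 5.91 in the induced ones, and AT5G61260 gave 4.47, 4.70 and 4.83 in the uninduced arrays and 5.37, 5.47 and 5.78 in the induced ones. Low genes with a difference of at least 1 and overlapping groups numbered 2. They were AT3G17270, with 2.68, 3.14 and 2.91 in the uninduced arrays and 3.11, 4.49 and 4.27 in the induced ones, and AT3G61820, with 4.17, 2.73 and 2.55 in the uninduced arrays and 5.01, 3.87 and 3.73 in the induced ones. AT3G61820 was higher in each same-numbered comparison, and its replicate 1 arrays lay above the others of their group.

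All 61 genes matched a protein-coding gene in RefSeq, as did all 6648 low genes with a match. The chosen genes were longer than low genes at large, with a median gene length of 2247 bases (quartiles 1346 and 2910) against 1308 bases (quartiles 828 and 1984). The median was 1373 bases over the low genes with unequal replicate 1 values, 1944 bases over the 57 genes raised from 5 or more, and 2334 bases over all locus-named genes at 5 or more. By their codes 22 of the 61 lie on chromosome 1, 5 on chromosome 2, 11 on chromosome 3, 4 on chromosome 4 and 19 on chromosome 5. As a share of the low genes of each chromosome this is 1.25%, 0.471%, 0.792%, 0.420% and 1.23%. These shares rest on few genes and were not tested.

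Of the measured genes adjacent to the 61, few passed the test. Adjacent means the next protein-coding gene on either side in RefSeq order, and 4 of the chosen genes are each other's neighbours. These are AT5G16230 with AT5G16240 and AT1G52560 with AT1G52565. AT1G52565 gave 3.97, 3.69 and 3.24 in the uninduced arrays and 4.64, 5.03 and 5.13 in the induced ones, and that couple had differences of 1.26 and 1.30. Of the 117 other neighbours 72 had a row under their name, beside 49 of the chosen genes. Their median difference was 0.08, and 47 lay higher and 25 lower in the induced arrays, where 48.3% of all rows lay higher. Of these neighbours, 64 of the 72 differed by no more than 0.5 either way. Many of the 72 held the same value in both replicate 1 arrays, as did 31.8% of all rows. Among them were AT1G62490, AT5G17750, AT3G14390, AT5G58840, AT5G44578, AT1G56720, AT1G22480, AT1G20520, AT1G67890 and AT3G62560. Replicate 1 adds no difference to such a gene, so a small difference there is not shown to be a lack of response. In limma 3 of the 72 rose and 0 fell, that is 4.17% raised against 0.633% of all rows. At an unadjusted p under 0.05 there were 11 of the 72, each of them higher after induction, where 4.17% of all rows were higher at that p and 8.48% passed it in either direction. All rows include 20927 that name no gene, while the neighbours are named genes, 47 of them with an uninduced mean of 5 or more. The background is thus not matched to them. The comparison was chosen after seeing the data, and the share was not tested.

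The raised neighbours lie beside 3 different chosen genes. AT1G21528, next to AT1G21520, gave 6.64, 6.41 and 6.54 in the uninduced arrays and 8.39, 8.35 and 8.38 in the induced ones, a rise of 1.84 ± 0.11 (SE, n = 3 per group; limma adjusted p = 0.00293). It passed in every fit run, with adjusted p from 6.6e-04 to 0.0436. JAL22 (AT2G39310), of the jacalin-like lectins, lies next to AT2G39320 and gave 9.77, 9.78 and 9.94 in the uninduced arrays and 10.95, 11.18 and 11.07 in the induced ones, a rise of 1.24 ± 0.12 (limma adjusted p = 0.0124). JAL23, on the other side of AT2G39320, differed by 0.55 ± 0.40 (limma adjusted p = 0.958). AT3G46890, next to AT3G46880, gave 6.41, 6.25 and 6.07 in the uninduced arrays and 7.14, 7.55 and 7.44 in the induced ones, a rise of 1.13 ± 0.16 (limma adjusted p = 0.0409). AT3G46890 did not pass with the replicate number as a block (0.0954), nor after quantile normalization (0.0537) or median subtraction (0.0504), nor without any of the 6 arrays in turn (0.0556 to 0.202). JAL22 passed when the first induced array was left out (0.0346), and missed the threshold when any other single array was (0.0542 to 0.0968) and in replicates 2 and 3 alone (0.0837). No RefSeq span of these 3 overlaps that of the chosen gene beside it. AT1G56700 and AT5G59540, whose spans do overlap a chosen gene, differed by 0.54 ± 0.15 (0.245) and 0.37 ± 0.34 (1.0).

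**Figure D4:**
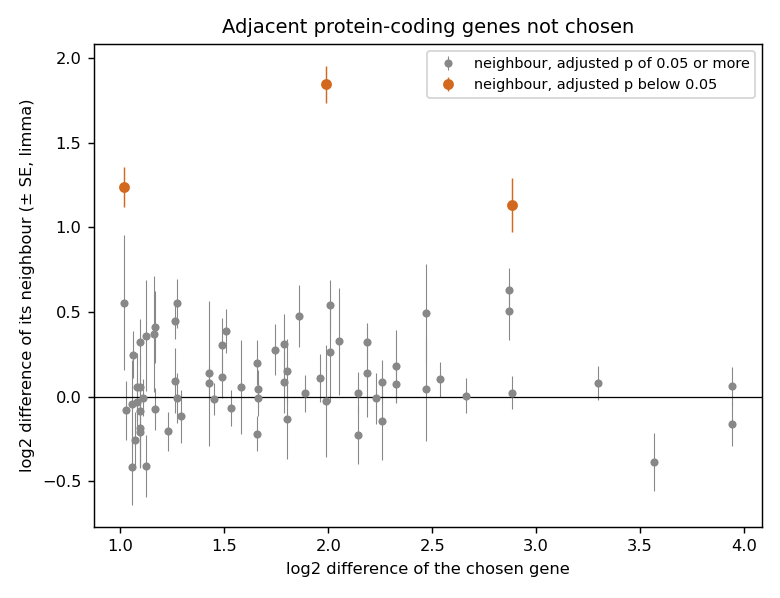
Log2 difference of each measured neighbour that was not chosen, with its SE from limma (n = 3 per group), against the log2 difference of the chosen gene beside it. The 3 neighbours with an adjusted p under 0.05, in orange, lie at 1.13, 1.24 and 1.84, and 64 of the 72 lie within 0.5 of zero.

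For 3 of the 61 genes the array holds a further row that the rule did not use, and 0 of these rows passed the test. The other row of AT5G16230 read 2.63, 2.14 and 2.36 uninduced and 2.88, 2.62 and 2.53 induced, a difference of 0.30 ± 0.17 (SE, n = 3 per group; limma adjusted p = 0.840) against 2.54 in the chosen row. A row that names AT1G33700 together with AT1G33680 differed by -0.09 ± 0.11 at a level of 9.93 (adjusted p = 1.0), and a row that names AT1G09390 together with AT1G09400 by 0.21 ± 0.26 (adjusted p = 1.0). Which transcripts each row reports was not analysed here. No row of the 61 shared all 6 values with another row. Single values were shared in the uninduced replicate 1 array. There AT4G02830, AT3G08490 and AT3G10080 all read 3.4732, and AT1G67900 and AT3G14560 both read 2.4668. The cause of these shared values was not tested.

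Genes of xylem and procambium were read beside the 61 to place them. Of 28 such genes listed by locus 5 had a row under their name, and 0 rose and 1 fell in limma, where 0.633% of all rows rose and 0.961% passed in either direction. A share over 5 genes was not tested. CLE41, the precursor of a peptide that keeps procambium dividing, fell by 1.04 ± 0.14 (SE, n = 3 per group; limma adjusted p = 0.0393). BRL1, LHW, CLE44 and PHV did not pass, with differences of -0.73, 0.31, -0.40 and -0.02 (limma adjusted p = 0.0509, 0.403, 0.751 and 1.0). With the replicate number as a block the adjusted p for CLE41 was 0.0734, and it was 0.105 to 0.189 when single arrays were left out, so the call ended in each of these fits. ATHB8 had no row under its name, so its induction could not be read. Of 19 marker genes of green tissue, root hair, phloem, xylem and dividing cells 2 had such a row. The root hair gene AT1G12560 read 4.20 uninduced and 4.09 induced, and AT4G32830, a mitotic kinase, 11.34 and 10.92. With so few markers measured, the cell type given in the labels was not tested.

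Limma over all rows called 33 of the 61 genes at an adjusted p under 0.05, where 0.633% of all rows were called higher and 0.961% in either direction, and 32 with the replicate number as a block, where 0.456% of all rows were called higher. The arrays that chose the genes also gave these calls, so nothing is read from them about the members. Leaving out one induced array gave 28, 11 and 13 calls for replicates 1, 2 and 3, and leaving out one uninduced array gave 22, 11 and 9. In replicates 2 and 3 alone it was 15. The share of all rows called is not given here for the fits with arrays left out. Nothing is therefore read about the members from these changes. The labels do not say whether the replicates are separate cultures, so the spread between arrays may be technical.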

How the data were processed

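The authors deposited log2 expression for 38408 rows in 6 arrays, 3 induced and 3 uninduced. The submitters' processing notes name Expression Console 1.3, of Affymetrix, as the software. Background correction, normalization, summarization and genome build are not given in the sources used here, so no further scaling was applied and coordinates are not given. The number of arrays limits the precision.

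Rows were named from the array's annotation, 16722 of them with a single gene. Current RefSeq entries (TAIR10.1) gave gene type, length, name and order, and all 61 genes matched by Entrez ID. The members, lists and tests were chosen with earlier results of these data known. Genes printed with all values are the 15 largest rises, those at the limits, the extremes and those with a family given here. Promoter motifs and protein similarity, planned at the start, were not analysed here, since no sequence table was used.

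Limma 3.58.1 in R 4.3.3 (lmFit, eBayes, no block, two-sided, Benjamini-Hochberg over all rows, threshold 0.05) was tested on simulated data. The simulated arrays were independent, without equal replicate 1 values or correlated same-numbered arrays, so the effect of these on the calls was not tested. Deviations of same-numbered arrays correlated across rows by 0.633, 0.268 and 0.248, all above 0.1, so a block for the replicate number was also fitted. Replicates 2 and 3 correlated about as much across numbers (0.260 and 0.244), so beyond replicate 1 a shared number adds little. With 3 arrays in each group the smallest two-sided p of an exact permutation test is 0.1. Alternatives were other normalizations, limits, variance priors, weights, filters, and leaving out each array. Figures used matplotlib 3.10.9 in Python 3.11.15.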

Additional observations from a re-analysis of the deposited data

How the results depend on the processing

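The number of chosen genes was 55 to 73 when each array was left out in turn and 59 or 60 after quantile normalization or median subtraction, and moved to 29 with an uninduced mean below 4 and to 31 with a difference of at least 1.5. The median difference was between 1.48 and 1.65 in the alternatives run for it, all of which use the values that chose the genes. The limma count of 33 among them was 9 to 28 without each array, 57 with array weights, 50 over rows naming 1 gene only, 15 in replicates 2 and 3 alone and 50 at an adjusted p below 0.1. Of the bHLH, xylem and procambium genes 1 was called, and 2 with quantile normalization, over rows at or above the 25th percentile, over rows naming 1 gene only or at an adjusted p below 0.1. The count was 3 with array weights or a trended, robust prior, and 0 with the replicate block, in replicates 2 and 3 alone and without each array in turn. The added genes were BRL1 and, in the counts of 3, bHLH115. The 3 called neighbours became 1 or 2 without each array, 1 in replicates 2 and 3 alone, 4 with array weights or the trended, robust prior, and 2 with the replicate block, quantile normalization or median subtraction. Of the neighbours and listed genes named in the text, CLE41 and AT3G46890 lost their call with the block, and among the 61 the block gave 32 calls. The share of all rows called is given here only for the main fit and the block. Whether the other changes in these counts follow the number of calls over all rows was not tested, nor were other causes. The lack of a background level limits every fold from a low signal.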
